A study of Mus musculus with 8 samples.

Results

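The mRNAs of the mouse mitochondrial genome were described in whole brains of newborn mice whose mothers had received cadmium (Cd). The 8 genes were chosen by symbol (*mt-Nd1*, *mt-Nd2*, *mt-Nd4*, *mt-Nd5*, *mt-Nd6*, *mt-Cytb*, *mt-Co1* and *mt-Atp6*) from the 49585 genes counted in the alignment to the C57BL/6J (B) genome. They are 8 of the 13 mRNA genes among the 37 genes that the GRCm38 annotation places on the mitochondrial chromosome. The study asked how exposure of the mother alone alters the developing brain of the offspring. Dams of strain C57BL/6J drank water with CdCl2 at 0 ppm or 50 ppm before mating and through pregnancy until birth, and were mated with CAST/EiJ (C) males. Whole brains of B × C females, taken at postnatal day 1 and each from a different litter, gave 4 libraries at 0 ppm and 4 at 50 ppm. The pups inherited their mitochondria from the B dam, which is why the alignment to the B genome is the main one here. Total counts were 29704044, 26741649, 30708087 and 25765997 at 0 ppm and 27943397, 28344410, 28163329 and 22916434 at 50 ppm, in the order of replicates 1 to 4, which is an order of names only. The library with the smallest total was therefore 50 ppm replicate 4.

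Mitochondria carry a small circular genome of their own, which is passed on by the mother and encodes core subunits of the respiratory chain, the rRNAs of the mitochondrial ribosome and a set of tRNAs. A nuclear-encoded RNA polymerase copies each strand into a long precursor, and the tRNAs that lie between the other genes are cut out to free the mRNAs, most of which then receive a short poly(A) tail. Neurons depend heavily on the ATP that this chain supplies, and all other respiratory chain subunits come from nuclear genes.

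The libraries were made from poly(A) RNA, so most mitochondrial mRNAs are counted through their tail. *mt-Nd6* is known as the exception that lacks a stable tail, so in such libraries its counts need not follow its amount. For *mt-Nd4* and *mt-Cytb* the tail also completes the stop codon, because the gene ends after its initial base. The last 30 bases of the 8 mRNAs are shown for this reason, 5′ to 3′ on the coding strand of GRCm38, with the stop codon, or the part of it that the gene encodes, in capitals.
mt-Nd1, chrM:3678-3707, plus strand: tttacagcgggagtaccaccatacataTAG
mt-Nd2, chrM:4922-4951, plus strand: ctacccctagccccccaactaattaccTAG
mt-Nd4, chrM:11515-11544, plus strand: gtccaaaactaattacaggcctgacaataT
mt-Nd5, chrM:13536-13565, plus strand: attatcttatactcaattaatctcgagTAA
mt-Nd6, chrM:13552-13581, minus strand: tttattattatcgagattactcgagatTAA
mt-Cytb, chrM:15259-15288, plus strand: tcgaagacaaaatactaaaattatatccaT
mt-Co1, chrM:6843-6872, plus strand: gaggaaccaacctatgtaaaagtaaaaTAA
mt-Atp6, chrM:8578-8607, plus strand: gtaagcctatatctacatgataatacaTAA

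*mt-Nd6* is the only 1 of the 8 encoded on the minus strand, and its last 14 bases (chrM:13552-13565) are the reverse complement of the last 14 bases of *mt-Nd5*. The strand setting of the count is not given in the sources used here, so reads in these 14 bases, which are 2.7% of *mt-Nd6* and 0.768% of *mt-Nd5*, cannot be assigned to either gene with certainty. Without strand, reads of any antisense RNA across the rest of *mt-Nd6* could also be counted on it. The strands differ in base composition, as the initial 60 bases of *mt-Co1* and *mt-Nd6* show, with the start codon in capitals.
mt-Co1, chrM:5328-5387, plus strand: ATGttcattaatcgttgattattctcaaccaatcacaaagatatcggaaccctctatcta
mt-Nd6, chrM:14011-14070, minus strand: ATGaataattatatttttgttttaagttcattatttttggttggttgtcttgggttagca
Over the whole gene, *mt-Nd6* holds 28.1% G and 5.97% C, and *mt-Co1* holds 16.1% G and 23.8% C.

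Of the 8 mRNAs, 7 were counted in every brain and had a higher mean at 50 ppm, by 1.21-fold (*mt-Nd2*) to 1.33-fold (*mt-Nd6*). The remaining gene, *mt-Atp6*, had at most 2 reads in a brain. The median log2 fold change of the 7 mRNAs was 0.30, against -0.003 over all 23113 genes tested. In the quasi-likelihood test of edgeR, with p adjusted by Benjamini-Hochberg, 0 of the 8 had an adjusted p under 0.05, against 4 of all genes tested (0.0173%). All 7 counted mRNAs had an unadjusted p under 0.05 in edgeR and a higher level at 50 ppm, as did 2.31% of all genes tested. With DESeq2 the numbers were also 0 and 7, against 0.0779% of all genes at the adjusted p and 1.79% higher at the unadjusted p. In edgeR 4 of the 7 had an unadjusted p under 0.05 in a robust fit (3.6% of all genes in either direction), and 4 without 50 ppm replicate 4, where the median log2 fold change was 0.19. The 4 exposed brains all lay above the 4 control brains for 3 of the 7 (*mt-Co1*, *mt-Cytb* and *mt-Nd6*), a pattern found in 1.19% of all genes. Of the 7, the 6 of the plus strand come from a common precursor and varied together, so they are not independent observations of the exposure, and *mt-Nd6* comes from the precursor of the other strand. In whole tissue, more cells rich in mitochondrial RNA and more of that RNA per cell cannot be told apart. Values are CPM, the reads of a gene per 1000000 reads of its library, with library sizes scaled by the TMM method of edgeR.

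**Figure D1:**
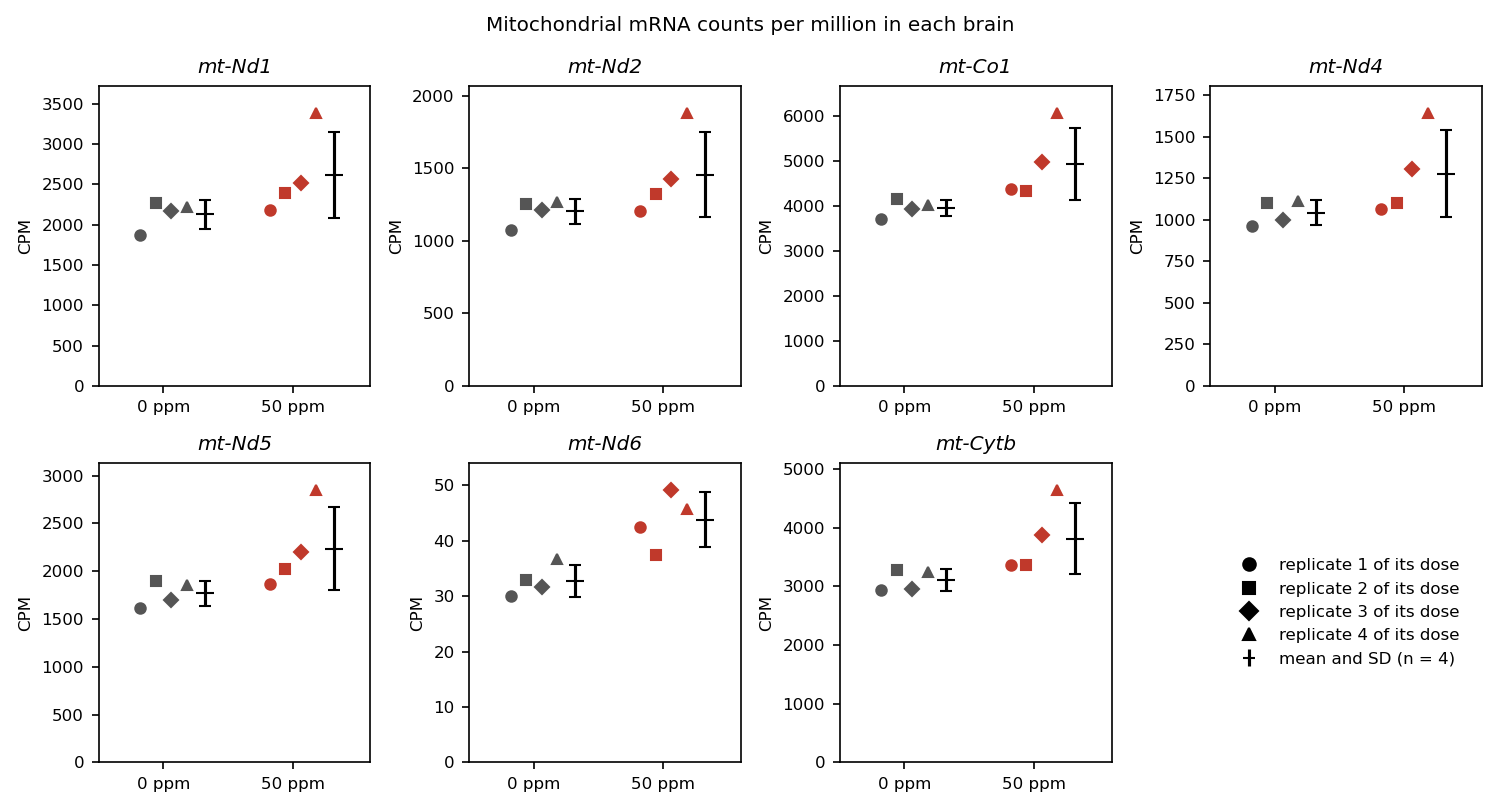
CPM (y axis, starting at 0) of the 7 counted mRNAs in each of the 4 brains at 0 ppm (grey) and 4 at 50 ppm (red), with the mean and SD of each dose. 50 ppm replicate 4 (red triangle) is the highest brain for 6 of the 7, and the doses do not overlap for *mt-Co1*, *mt-Cytb* and *mt-Nd6*.

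Complex I takes electrons from NADH into the chain, and its membrane arm contains the 7 proteins named ND, of which 5 have their mRNA among the 8 genes. *mt-Nd1* (ENSMUSG00000064341, chrM:2751-3707), whose protein lies where the membrane arm meets the rest of the complex, had 1866, 2265, 2164 and 2221 CPM at 0 ppm, against 2179, 2397, 2512 and 3382 CPM at 50 ppm. The doses overlapped, since 50 ppm replicate 1 lay below 2 of the control brains, and 50 ppm replicate 4 stood well above all others. The means were 2129 ± 180 CPM and 2617 ± 528 CPM (SD, n = 4), and the log2 fold change was 0.30 (standard error 0.11, edgeR adjusted p = 0.999). *mt-Nd2* (ENSMUSG00000064345, chrM:3914-4951), for another subunit of the membrane arm, had 1079, 1257, 1213 and 1270 CPM at 0 ppm, against 1204, 1322, 1426 and 1881 CPM at 50 ppm. Here 50 ppm replicate 1 lay below 3 control brains, and the log2 fold change of 0.28 (standard error 0.10, edgeR adjusted p = 0.999) was the smallest of the 7.

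*mt-Nd4* (ENSMUSG00000064363, chrM:10167-11544) and *mt-Nd5* (ENSMUSG00000064367, chrM:11742-13565) encode large subunits of the same arm that resemble ion antiporters. *mt-Nd4* had 959, 1100, 997 and 1110 CPM at 0 ppm, against 1065, 1102, 1302 and 1640 CPM at 50 ppm. *mt-Nd5* had 1616, 1902, 1698 and 1852 CPM at 0 ppm, against 1867, 2026, 2201 and 2852 CPM at 50 ppm. The doses overlapped through 50 ppm replicates 1 and 2 for *mt-Nd4* and through replicate 1 for *mt-Nd5*, and replicates 3 and 4 lay above every control brain for both. The log2 fold changes were 0.29 (standard error 0.11, edgeR adjusted p = 0.999) for *mt-Nd4* and 0.34 (standard error 0.10, edgeR adjusted p = 0.862) for *mt-Nd5*. A two-sided exact permutation test, which has 70 labellings and a smallest p of 0.0286, was also run on each gene, and here *mt-Nd1* had p = 0.0857, *mt-Nd2* and *mt-Nd4* p = 0.143 and *mt-Nd5* p = 0.0571.

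*mt-Nd6* (ENSMUSG00000064368, chrM:13552-14070), the complex I gene of the minus strand, had 30.0, 33.0, 31.6 and 36.7 CPM at 0 ppm, against 42.4, 37.5, 49.2 and 45.8 CPM at 50 ppm. The doses did not overlap, and its highest brain was 50 ppm replicate 3, where the other 6 counted mRNAs were highest in replicate 4. This exception depends on the alignment, since in the C genome *mt-Nd6* was also highest in replicate 4. The gap was narrow. The brain 0 ppm replicate 4, with 949 reads, had a 95% exact Poisson interval of 34.4 to 39.2 CPM. For 50 ppm replicate 2, with 1068 reads, the interval was 35.3 to 39.8 CPM. Such intervals cover counting error only. The means were 32.8 ± 2.87 CPM and 43.8 ± 5.01 CPM (SD, n = 4). Its log2 fold change of 0.41 (standard error 0.09, edgeR adjusted p = 0.319) was the largest of the 7, and the exact permutation test gave p = 0.0286. That test gives this p whenever the doses do not overlap, so here and for *mt-Cytb* and *mt-Co1* it only restates the lack of overlap. Without a filter on low counts, edgeR's adjusted p of *mt-Nd6* with Benjamini-Hochberg adjustment was 0.0367, in a fit where 52 of 27077 genes were under 0.05. Over all alternatives tried its adjusted p lay between 0.0367 and 1, apart from the fit without a filter always above 0.05.

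Complex III passes electrons from ubiquinol to cytochrome c, and *mt-Cytb* (ENSMUSG00000064370, chrM:14145-15288) encodes its subunit cytochrome b. It had 2935, 3279, 2960 and 3251 CPM at 0 ppm, against 3369, 3371, 3869 and 4646 CPM at 50 ppm. Every exposed brain lay above every control brain, replicates 1 and 2 only slightly so. The means were 3106 ± 184 CPM and 3814 ± 603 CPM (SD, n = 4), the log2 fold change was 0.30 (standard error 0.09, edgeR adjusted p = 0.864), with p = 0.0286 in the exact permutation test.

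Complex IV reduces oxygen, and *mt-Co1* (ENSMUSG00000064351, chrM:5328-6872) encodes the subunit that holds its catalytic centre. It had 3712, 4155, 3945 and 4016 CPM at 0 ppm, against 4373, 4343, 4975 and 6068 CPM at 50 ppm. The doses did not overlap, and replicate 4 was again far above the other exposed brains. The means were 3957 ± 185 CPM and 4940 ± 806 CPM (SD, n = 4), the log2 fold change was 0.32 (standard error 0.09, edgeR adjusted p = 0.745), with p = 0.0286 in the exact permutation test.

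ATP synthase uses the proton gradient to make ATP, and *mt-Atp6* (ENSMUSG00000064357, chrM:7927-8607) encodes the membrane subunit of its proton channel. Its reads numbered 2, 0, 0 and 0 at 0 ppm and 0, 1, 0 and 1 at 50 ppm. All 8 brains were thus under the 3 reads that a count of 0 allows, which make 0.098 to 0.132 CPM in these libraries, and no fold change is given. It passed the filter on low counts only because that filter admits genes at 0 in up to 5 of 8 libraries. The other 5 mitochondrial mRNAs of the annotation (*mt-Nd3*, *mt-Nd4l*, *mt-Co2*, *mt-Co3* and *mt-Atp8*) had 0 reads in all 8 brains. A 0 in this table does not show that an RNA is absent: *Tubb3*, the tubulin gene of neurons, and *Cox4i1* and *Ndufa13*, which encode common subunits of complexes IV and I, were also at 0 in all 8 brains.

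Parts of the mitochondrial genome also lie in the nucleus, as inserted copies. On chromosome 1 of GRCm38, between 24611535 and 24616197 on the minus strand, 7 annotated pseudogenes follow each other in the order of the mitochondrial genes. The whole length of 5 of them is identical to an mRNA gene, among them *Gm10925* (chr1:24613974-24614651), whose 678 bases equal bases 1 to 678 of *mt-Atp6*. The initial 120 bases of both are shown to make this visible, and no base is in capitals because none differs.
mt-Atp6, chrM:7927-8046, plus strand: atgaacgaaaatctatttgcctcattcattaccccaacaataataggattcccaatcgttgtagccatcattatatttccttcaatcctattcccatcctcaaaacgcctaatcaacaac
Gm10925, chr1:24614532-24614651, minus strand: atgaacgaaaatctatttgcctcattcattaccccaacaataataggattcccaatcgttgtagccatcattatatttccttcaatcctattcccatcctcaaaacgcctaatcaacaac
The closest case with a difference is *Gm28438* (chr1:24612775-24613119), which over 345 bases departs from *mt-Nd3* by 1 substitution, T3C, counted from the initial base of the gene and with the mitochondrial base first. The differing base is in capitals.
mt-Nd3, chrM:9459-9518, plus strand: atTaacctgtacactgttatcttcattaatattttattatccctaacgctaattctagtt
Gm28438, chr1:24613060-24613119, minus strand: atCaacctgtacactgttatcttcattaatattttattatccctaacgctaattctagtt
*Gm28438* had 8 to 32 reads in a brain, and the other 6 pseudogenes of the block had at most 7.

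After trimming, the reads were 115 bases long, so each mRNA gene was divided into all its windows of 115 bases and each window was searched, on both strands, in every annotated transcript outside the mitochondrial chromosome. For *mt-Atp6* 564 of the 567 windows (99.5%) also occurred in *Gm10925*, and the 3 others reach past the annotated end of that copy. *mt-Co2*, *mt-Co3*, *mt-Nd3* and *mt-Nd4l*, which were at 0, shared 97.4% to 99.9% of their windows. By contrast *mt-Nd1*, *mt-Nd5*, *mt-Nd6* and *mt-Cytb* shared 0 windows, and *mt-Nd2* shared 15 of 924 (1.62%). In between lay *mt-Co1*, with 401 of 1431 windows (28%) shared, and *mt-Nd4*, with 762 of 1264 (60.3%). *mt-Atp8* did not follow this order, since it was at 0 with 0 of 90 windows shared. The 233 bases between *Gm10925* and *Gm28661* on chromosome 1 belong to no transcript and were not searched, and 43 of the 204 bases of *mt-Atp8* also belong to *mt-Atp6*. How reads that align to several places were counted is not given in the sources used here, and the part of the shared sequence in the low counts was not tested. The counts of *mt-Atp6*, *mt-Nd4* and *mt-Co1* are therefore uncertain as measures of their level.

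**Figure D2:**
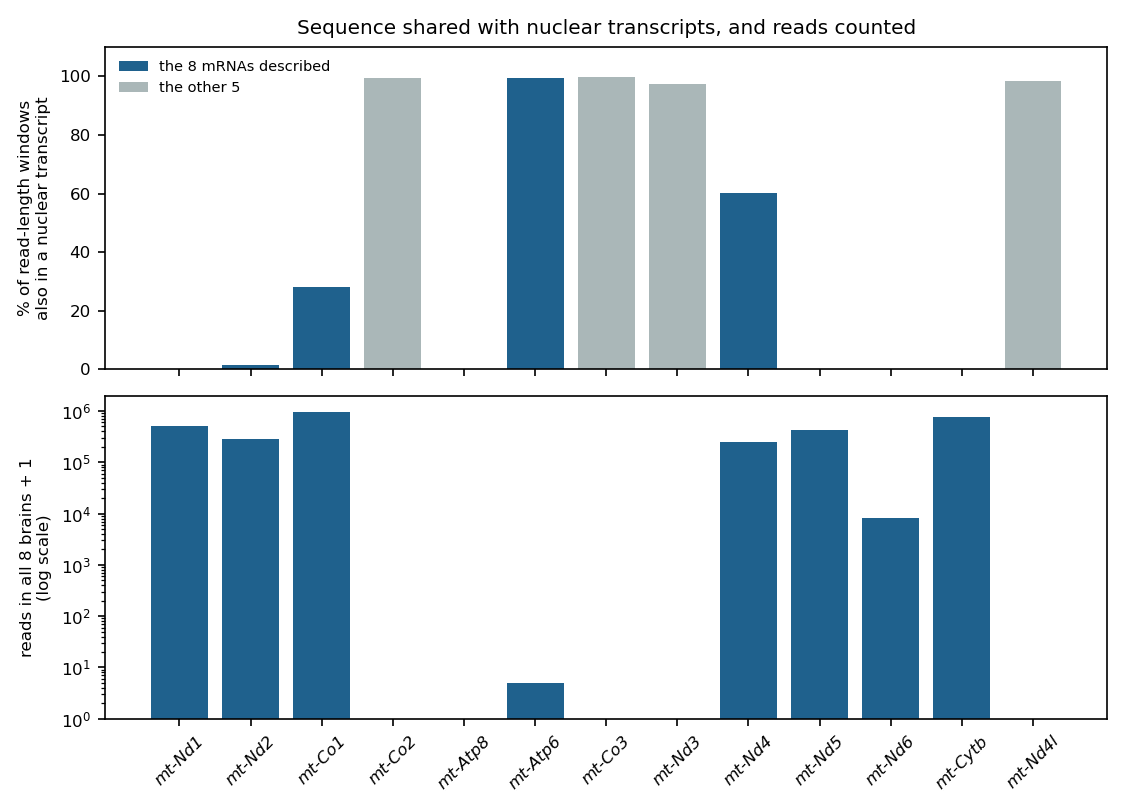
Percent of the 115-base windows of each mitochondrial mRNA gene that also occur in a nuclear transcript (upper bars), and reads counted over all 8 brains plus 1 on a log axis (lower bars), in genome order except that *mt-Nd4l* stands last. Blue bars are the 8 mRNAs described and grey bars the other 5; genes with 97.4% or more of their windows shared had at most 4 reads in all, and *mt-Atp8* had 0 reads with 0 shared windows.

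Levels between the genes were compared per length, at 0 ppm. Per kilobase of gene, *mt-Cytb* (2715 ± 161 CPM) and *mt-Co1* (2561 ± 120 CPM) were highest (SD, n = 4), with *mt-Cytb* above *mt-Co1* in all 8 brains. *mt-Nd1* followed with 2225 ± 188 CPM, then *mt-Nd2* with 1161 ± 84.3 CPM, *mt-Nd5* with 969 ± 73.0 CPM and *mt-Nd4* with 756 ± 54.7 CPM per kilobase (SD, n = 4). *mt-Nd6* had 63.3 ± 5.53 CPM per kilobase, by far the lowest of the 7, and each gene lay above the next in this order in all 8 brains. Counted instead per 1000 windows that occur in no nuclear transcript, *mt-Co1* (3842 ± 180 CPM) was above *mt-Cytb* (3016 ± 178 CPM), and *mt-Nd4*, with 2074 ± 150 CPM, moved above *mt-Nd2* (1326 ± 96.2 CPM) and *mt-Nd5* (1033 ± 77.8 CPM; SD, n = 4). The order of the genes thus depends on how shared sequence is treated. By mean CPM over all 8 brains, without regard to length, *mt-Co1* ranked 2 among all genes of the table, *mt-Cytb* 5, *mt-Nd1* 11 and *mt-Nd6* 5983.

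Summed over the 8 genes, the brains had 12197, 13991, 13008 and 13758 CPM at 0 ppm, against 14100, 14599, 16334 and 20515 CPM at 50 ppm. The exposed brains all lay above the control brains, with 50 ppm replicate 1 only slightly above 0 ppm replicate 2. The means were 13238 ± 811 CPM and 16387 ± 2914 CPM (SD, n = 4), a ratio of 1.24. Without 50 ppm replicate 4, the library with the fewest counts, the ratio was 1.13 and the median log2 fold change of the 7 mRNAs 0.19, against 0.30 with all brains. In that fit *mt-Co1*, *mt-Cytb*, *mt-Nd5* and *mt-Nd6* had an unadjusted edgeR p under 0.05, against 3.2% of all genes in either direction. The log2 fold changes of *mt-Co1*, *mt-Cytb* and *mt-Nd5* fell to 0.21, 0.19 and 0.20. *mt-Nd1*, *mt-Nd2* and *mt-Nd4* did not reach that p, with log2 fold changes of 0.15, 0.13 and 0.15. *mt-Nd6* moved least, to 0.39 (standard error 0.10). The number of mRNAs whose doses did not overlap was 3 without 50 ppm replicate 4, where 2.32% of all genes did not overlap in this direction, and 6 without 50 ppm replicate 1, where 2.45% did not.

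**Figure D3:**
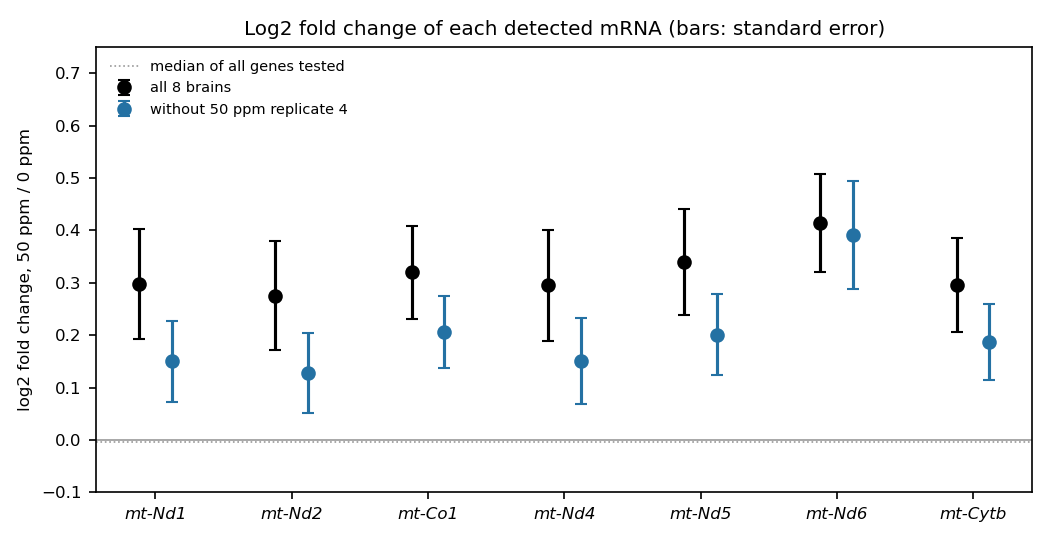
Log2 fold change of 50 ppm against 0 ppm (y axis) for the 7 counted mRNAs with all 8 brains (black) and without 50 ppm replicate 4 (blue), with standard errors as bars and the median of all genes tested as a dotted line. All values are above 0, between 0.28 and 0.41 with all brains and between 0.13 and 0.39 without that brain.

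The 6 counted mRNAs of the plus strand kept nearly fixed proportions to each other in all brains, and *mt-Nd6* varied more. *mt-Co1* made up 29.9 ± 0.58% of the sum at 0 ppm and 30.2 ± 0.666% at 50 ppm, and *mt-Cytb* 23.5 ± 0.544% and 23.3 ± 0.568% (SD, n = 4). *mt-Nd1* made up 16.1 ± 0.557% and 15.9 ± 0.6% (SD, n = 4). These shares differed between doses by less than the spread between brains. *mt-Nd6*, from the other strand, had a share of 0.248 ± 0.0134% at 0 ppm and 0.271 ± 0.0378% at 50 ppm (SD, n = 4), a difference within the spread, with 0.223% to 0.301% over the 8 brains. Relative to 100 CPM of *mt-Nd5* it had 1.73 to 1.98 CPM at 0 ppm and 1.61 to 2.27 CPM at 50 ppm. The exposed brains held both the highest and the lowest of these values, the lowest being in replicate 4.

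**Figure D4:**
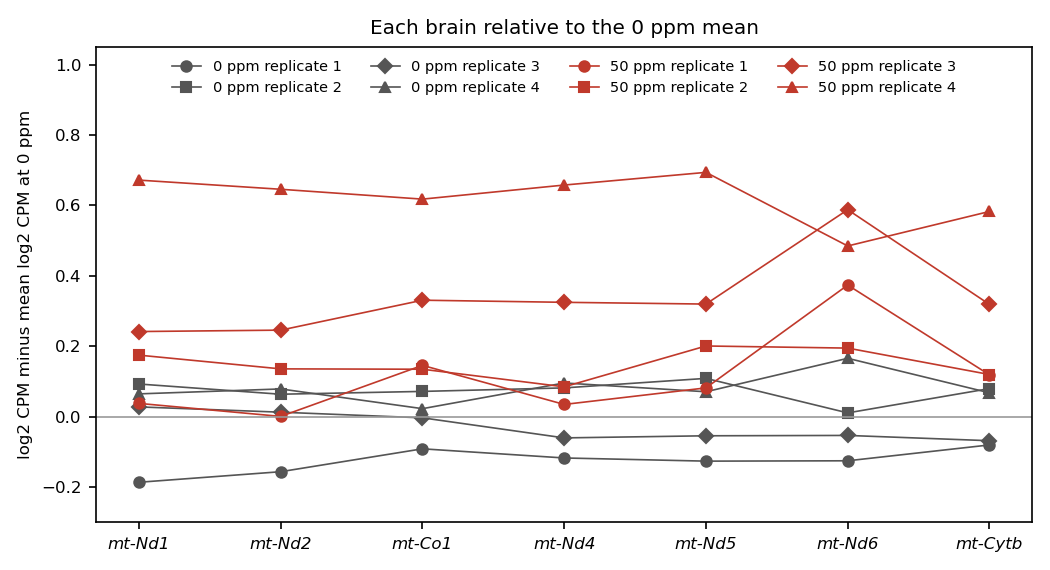
Log2 CPM of each counted mRNA minus its mean log2 CPM at 0 ppm (y axis), with a line for each brain (grey 0 ppm, red 50 ppm) that only joins the values of that brain. The lines run nearly flat and side by side except at *mt-Nd6*, where 50 ppm replicate 3 is above replicate 4 (in this alignment only, not in that to the C genome); 0 ppm replicate 1 is the lowest brain for all 7 mRNAs.

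Among the 29 other genes of the mitochondrial chromosome, the rRNAs were abundant. *mt-Rnr1*, the rRNA of the small ribosomal subunit, had 512, 617, 646 and 570 CPM at 0 ppm, against 696, 623, 613 and 823 CPM at 50 ppm, which gave log2 0.23 as fold change (standard error 0.09, edgeR adjusted p = 0.999, unadjusted p = 0.0212). *mt-Rnr2*, the rRNA of the large subunit, had 1215, 1660, 1604 and 1281 CPM and 1398, 1573, 1601 and 2037 CPM, which gave log2 0.20 (standard error 0.11, edgeR adjusted p = 0.999). Both overlapped between doses, and both were highest in 50 ppm replicate 4. The rRNAs carry little poly(A), so in poly(A) libraries their counts need not follow their amounts. Of the 22 tRNAs, 13 were at 0 in all brains and 6 were tested with more than 3 reads in some brain, with a median log2 fold change of -0.06 and 0 at an adjusted or unadjusted p under 0.05 in edgeR and in DESeq2. The most abundant, *mt-Tw*, had 3.03 ± 0.764 CPM and 2.97 ± 0.503 CPM (SD, n = 4). Of the 9 genes listed as nuclear copies, the 7 on chromosome 1 matched mitochondrial sequence, and *Gm10221* and *Gm29215* did not (33.7% and 31.4% identity at best). The list leaves out *Gm13339*, *Gm13340* and *Gm13341*, which shared 115-base windows with *mt-Nd2*, *mt-Co1* and *mt-Co2*. The list had 2 genes over the floor, with fitted log2 fold changes of opposite sign, so that their median of 0.27 describes neither, and 0 of them passed the adjusted p in edgeR or DESeq2. *Gm29216*, named after its value was seen, had -0.22 (standard error 0.72, edgeR unadjusted p = 0.759), and *Gm28438* had 0.77 (standard error 0.33, edgeR unadjusted p = 0.0335, adjusted p = 0.999) at 0.934 ± 0.255 CPM at 50 ppm (SD, n = 4).

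The nuclear genes that serve the mitochondrial genome were near the median of all genes. The list of mitochondrial transcription, which holds the RNA polymerase and its factors, had 10 of 10 genes tested and a median log2 fold change of -0.04. Its most abundant gene was *Tfam*, a factor that packs mitochondrial DNA and starts its transcription, with 47.4 ± 3.28 CPM at 0 ppm and 47.8 ± 2.79 CPM at 50 ppm (SD, n = 4). Of the genes of mitochondrial RNA processing and stability 19 of 20 were tested, with a median of -0.006. *Lrpprc*, the most abundant of them, encodes a protein that stabilises mitochondrial mRNAs and had 118, 120, 118 and 118 CPM at 0 ppm, against 109, 115, 111 and 118 CPM at 50 ppm. Its exposed brains all lay just below the control brains, a pattern whose share among all genes was not counted in this direction. Its log2 fold change of -0.07 (standard error 0.06, edgeR unadjusted p = 0.295, adjusted p = 0.999) was small. The 12 genes of mtDNA replication and nucleotide supply had a median of -0.007, with 76.2 ± 5.02 CPM and 74.6 ± 3.92 CPM (SD, n = 4) for *Lig3*, a DNA ligase. The 7 biogenesis regulators had a median of -0.05, with 55.0 ± 1.15 CPM and 53.2 ± 4.60 CPM (SD, n = 4) for *Gabpa*, which encodes a transcription factor subunit.

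The partner subunits from the nucleus were also close to 0. The median log2 fold change was -0.002 over 37 tested genes of the complex I list, 0.03 over 9 of complex III, -0.02 over 10 of complex IV and 0.009 over 15 of ATP synthase. The complex I list took all symbols starting with Nduf except Ndufaf, and it shares a gene with the complex IV list. *Ndufs1* (complex I) had 131 ± 4.37 CPM at 0 ppm and 132 ± 5.05 CPM at 50 ppm, and *Uqcrc2* (complex III) 201 ± 6.73 CPM and 204 ± 9.28 CPM (SD, n = 4). *Cox5a* (complex IV) had 105 ± 10.6 CPM and 108 ± 10.7 CPM, and *Atp5b* (ATP synthase) 989 ± 35.1 CPM and 1021 ± 53.5 CPM (SD, n = 4). In each of these genes the doses differed by less than the spread between brains. The 75 tested genes of mitochondrial ribosomal proteins had a median of -0.03, and *Mrpl3*, the most abundant, had 57.6 ± 2.84 CPM and 56.5 ± 1.36 CPM (SD, n = 4). In these 9 nuclear lists, 0 genes had an adjusted or an unadjusted p under 0.05 in edgeR or in DESeq2, against 3.75% of all genes at an unadjusted edgeR p under 0.05 in either direction. Whether they differ from the mitochondrial mRNAs as a group was not tested.

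**Figure D5:**
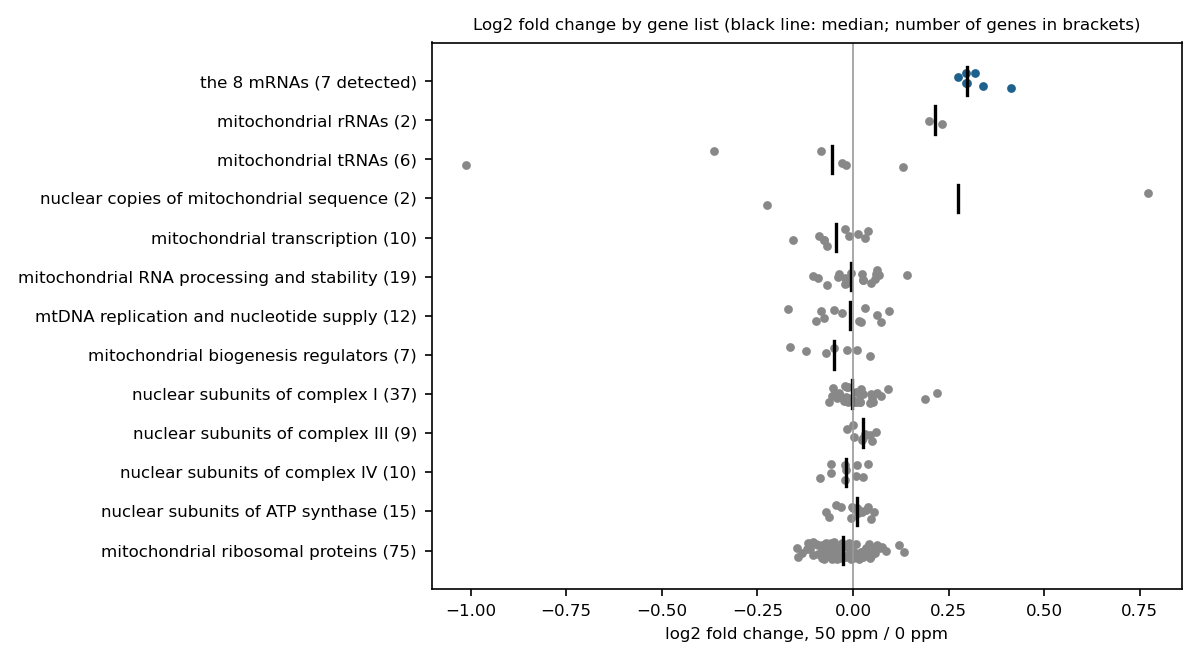
Log2 fold change of 50 ppm against 0 ppm (x axis) of every tested gene with more than 3 reads in some brain, by gene list (y axis, number of genes in brackets), with the median as a black line and points spread vertically for sight only. The 7 counted mRNAs (blue) lie between 0.28 and 0.41, and the medians of the 9 nuclear lists from transcription to ribosomal proteins lie between -0.05 and 0.03.

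Markers of the cells of the brain were read in the same libraries, where 2.31% of all genes tested were higher and 1.44% lower at an unadjusted edgeR p under 0.05 (1.79% higher in DESeq2). Neuron markers summed to 4585, 4043, 4599 and 4520 CPM at 0 ppm, against 4527, 4697, 4503 and 4772 CPM at 50 ppm, with *Map2* the most abundant. They were thus high in all brains, apart from *Tubb3* at 0, and 1 of 6 tested, *Nefl*, had an unadjusted edgeR p under 0.05 (264 ± 79.9 CPM and 369 ± 14.5 CPM, SD, n = 4). Astrocyte and oligodendrocyte markers had higher sums at 50 ppm, with overlap between doses only for the latter. Astrocyte markers summed to 735, 590, 799 and 674 CPM at 0 ppm, against 880, 886, 808 and 970 CPM at 50 ppm. Of these 6 genes, all were higher and 5 had an unadjusted edgeR p under 0.05 (4 in DESeq2), with *Aqp4*, *Gja1*, *Aldoc* and *S100b* at the smallest p and *Slc1a3* the most abundant. Oligodendrocyte markers summed to 147, 142, 160 and 154 CPM at 0 ppm, against 204, 219, 156 and 230 CPM at 50 ppm. In this list 4 of 6 genes were higher with an unadjusted edgeR p under 0.05, the other 2 were lower without reaching it, and *Mbp* was the most abundant. Both sums were highest in 50 ppm replicate 4, the brain with the most mitochondrial mRNA, but lowest among exposed brains in replicate 3, which had the next highest mitochondrial sum.

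Brainstem and spinal cord markers summed to 6.28, 7.51, 48.3 and 50.0 CPM at 0 ppm, against 116, 66.7, 41.1 and 56.5 CPM at 50 ppm. 0 ppm replicates 1 and 2 were thus far below all others. Of the 8 genes, 6 were higher at an unadjusted edgeR p under 0.05 and 0 at that p in DESeq2, with *Slc6a5* the most abundant. Forebrain markers summed to 1061, 989, 629 and 791 CPM at 0 ppm, against 728, 745, 873 and 804 CPM at 50 ppm, with *Bcl11b* the most abundant and 3 of 7 genes lower at an unadjusted edgeR p under 0.05. Microglia markers summed to 74.0, 62.9, 70.7 and 65.4 CPM at 0 ppm, against 77.4, 84.2, 72.7 and 89.6 CPM at 50 ppm, and 3 of the 5 genes, *P2ry12*, *Csf1r* (the most abundant) and *Cx3cr1*, were higher at that p, while of the others 1 was higher and 1 lower without reaching it. The markers of regions and cells in the samples therefore differed between libraries, and their part in the mitochondrial values was not tested.

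Choroid plexus and ependyma markers summed to 591, 1215, 476 and 519 CPM at 0 ppm, against 370, 631, 578 and 816 CPM at 50 ppm, with *Ttr* the most abundant. Blood markers summed to 128, 257, 259 and 312 CPM at 0 ppm, against 101, 157, 404 and 206 CPM at 50 ppm, with *Hbb-bs* the most abundant. Both varied widely within each dose. Muscle markers (*Acta1* the most abundant) summed to 8.14 to 10.4 CPM in a brain and endothelium markers (*Cldn5*) to 115 to 147 CPM. In these 4 lists 0 markers had an unadjusted p under 0.05 in edgeR or DESeq2. At the adjusted p, 0 markers of any list passed in edgeR and 3 passed in DESeq2, all of them in the oligodendrocyte list.

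The genes outside the mitochondrial chromosome and the lists whose log2 CPM followed the summed mitochondrial level most closely over the 8 brains were *Elp4*, *Pcdh9*, *Mdga2*, *Orc3* and *Dap*, picked as the 5 with the highest Pearson r among 10108 genes with a mean of at least 10 CPM. Their r was 0.928, 0.921, 0.918, 0.917 and 0.912, with Spearman's rho of 0.619, 0.81, 0.714, 0.619 and 0.81, given as a description without p since they were picked by r. Leaving out the 2 brains farthest from the median of the mitochondrial sum lowered r to 0.47, 0.598, 0.413 and 0.484 for the initial 4 and to 0.802 for *Dap*, so for those 4 the likeness rests largely on 2 brains. Their changes with dose were small, with log2 fold changes of 0.06 (*Orc3*) to 0.20 (*Pcdh9*).

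The alignment to the C genome, analysed separately, could be read for the 3 mRNAs whose identifiers a table pairs with a name. Fewer reads were counted there, 92.1% to 97.3% of the B count for *mt-Co1*, 68.7% to 75.4% for *mt-Nd5* and 74.5% to 92.7% for *mt-Nd6*. *mt-Nd6* had 29.8, 33.7, 31.8 and 35.1 CPM at 0 ppm, against 40.7, 37.5, 41.3 and 48.2 CPM at 50 ppm in that alignment. For all 3 the exposed brains lay above the control brains, a pattern whose share among all genes was not counted in that alignment. For *mt-Nd5* this differed from the B genome, where 50 ppm replicate 1 (1867 CPM) lay below 0 ppm replicate 2 (1902 CPM). The log2 fold changes were 0.35 (*mt-Co1*, standard error 0.10), 0.33 (*mt-Nd5*, standard error 0.09) and 0.36 (*mt-Nd6*, standard error 0.09), with edgeR adjusted p-values of 0.737, 0.718 and 0.526. These are the same libraries, so the values are not independent support.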

How the data were processed

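RNA-seq was made from 8 whole brains. The values deposited are counts of reads for each gene, made by the authors without normalization, for alignments to the B genome (GRCm38) and the C genome, after trimming the initial 10 bases, STAR alignment and counting with htseq-count (versions, strand setting and multiple alignments: not given in the sources used here). A gene was tested if it was at 0 in at most 5 of the 8 libraries. Libraries were scaled by TMM and tested with edgeR 4.0.16 (glmQLFit, glmQLFTest, treatment as the only term, R 4.3.3), with Benjamini-Hochberg adjustment over all genes and a threshold of 0.05. The standard error is the absolute log2 fold change divided by the square root of F. The exact permutation test used log2 CPM (prior count 2). A count of 0 allows up to 3 reads. Brains of a dose differed beyond sampling noise in all 12 pairs (chi-square per degree of freedom 9.28 to 22.7). Coordinates and transcripts came from the GENCODE annotation of GRCm38, which names 49326 of the 49585 identifiers. From each list the text names up to 4 genes with the smallest unadjusted p under 0.05 and the most abundant gene, besides the 8 mRNAs and the 5 genes most like their sum. The marker lists were treated in the same way after their values were seen, except that single genes of the oligodendrocyte, brainstem and forebrain lists are not reported here, apart from the most abundant and those with a brain that stood apart. Alternatives were DESeq2 1.42.0, other library sizes and filters, a robust fit, omission of each library and the C genome. Members and lists were chosen with earlier results of these data known. The code was tested on simulated data, where the share of false calls at the adjusted p was above the nominal level with edgeR and with DESeq2, so calls near the threshold are to be read with caution. Figures were drawn with matplotlib 3.10.9.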

Additional observations from a re-analysis of the deposited data

Results flagged for a closer look

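No value of the 7 counted mitochondrial mRNAs or of their sum stood apart from its dose group by the gap between a brain and its nearest neighbour relative to the range of the group, 50 ppm replicate 4 included. Among 142 groups of 4 examined, 9 values did, and chance gives about 1 in 20. On the mitochondrial chromosome these were *mt-Ti* in 50 ppm replicate 4 (1.94 CPM), *mt-Tm* in 50 ppm replicate 1 (0.281 CPM) and *mt-Tw* in 0 ppm replicate 2 (4.17 CPM), all tRNAs with at most 112 reads. 0 ppm replicate 2 also stood apart for *Lrpprc* (120 CPM), *Ttr* (1128 CPM), the summed choroid plexus and ependyma markers (1215 CPM) and the summed neuron markers (4043 CPM). 50 ppm replicate 1 stood apart for *Hoxb3* (34.8 CPM) and *Hoxb4* (7.47 CPM). The causes were not tested.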

How the results depend on the processing

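The 7 counted mRNAs were higher at 50 ppm in every alternative run for them, which include each library left out. With 1 library left out, their median log2 fold change lay between 0.19 and 0.38, the ratio of the sums between 1.13 and 1.30 and the number of mRNAs with an unadjusted edgeR p under 0.05 between 4 (without 50 ppm replicate 4) and 7, against 3.2% to 5.08% of all genes in either direction. The robust fit also gave 4 in place of 7. The count of genes called was 4 of 23113 in the main fit, 18 of 23113 with DESeq2 and 52 of 27077 without a filter. It was 2 of 16532 with a minimum of 10 counts in 4 or more libraries and 2 of 19847 in the C genome. With 1 library left out it lay between 2 (without 0 ppm replicates 1 or 2 or 50 ppm replicate 4) and 20 (without 0 ppm replicate 3), with 8 without 50 ppm replicate 3. Without a filter *mt-Nd6* was called (log2 fold change 0.41, edgeR adjusted p = 0.0367 with Benjamini-Hochberg adjustment), and in no other alternative was any of the 7 called. The causes were not tested. The count of mRNAs without overlap under left-out libraries (3 to 6, with 2.21% to 2.84% of all genes) was added after seeing the data. Counts of mRNAs were not compared for the C genome, where 3 have a name. No paired analysis was possible because the replicate numbers only name the brains in accession order. For *mt-Nd6* the counting intervals of 0 ppm replicate 4 and 50 ppm replicate 2 overlap, but they leave out the spread between brains. Whether depth limits the narrow gap between its doses was not tested, nor was what limits *mt-Atp6* and the tRNAs.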
